A study of Mus musculus with 12 samples.

Results

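The 9 genes Ctse, Abhd17b, Cemip2, Bckdhb, Cyb5r4, Atp10d, Bend4, Txk and Mid1 differed between STAT3-/- and wild-type (WT) CD8 T cells in the same direction under 2 culture conditions. They were chosen by their STAT3-/- minus WT differences in these same arrays, in Tc1 and in Tc17 cells, with earlier results known. Those differences are therefore given as a description, without a test. Their size alone did not give the list. Left out were 47 other tested genes that differed by at least 0.5 with 1 sign in both cultures. Cyb5r4, with differences of -0.43 in Tc1 and -0.17 in Tc17, is included. Whether place in the genome entered the choice is not stated, so the closeness of the 9 genes and their neighbours' values are descriptions too. The 9 genes are among 9862 tested genes and 22180 genes that the platform annotation names with a single symbol.

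The 12 Affymetrix arrays fall into 4 groups of 3 arrays. Naive CD8 T cells from mouse spleen, either WT or from mice in which a Cd4-driven Cre deletes a floxed Stat3 gene (STAT3-/-), were mixed in equal shares and activated with anti-CD3 (1 µg/ml) and anti-CD28 (3 µg/ml). The mixture received IL-12 (Tc1) or IL-6 with TGF-beta (Tc17) for 3 days and IL-2 for 1 more day, 4 days in all, and the genotypes were then separated by sorting on allelic markers. Of a group's 3 arrays, 2 are biological and 1 is technical; the last bears the number of biological replicate 2 and was averaged with it, which leaves 2 samples per group. The number alone ties them, since the labels do not say which RNA was measured again. The labels do not say from which animals or cultures replicates came, so SDs and p-values measure how these samples spread, and that spread may in part be technical. They also give neither the age of the animals, nor whether the WT cells carry Cre, nor which allelic markers were used.

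STAT3 is the transcription factor that the IL-6 receptor activates, and in T cells it is needed for the IL-17 program. IL-12, the cytokine of the Tc1 culture, acts mainly through a different member of the family, STAT4. A mouse line made by gene targeting can carry, beside the altered gene, stretches of DNA from the strain in which it was made. Congenic marker alleles likewise come with DNA from around the marker gene. Because all STAT3-/- cells differed from all WT cells in Stat3 and in the sort marker, an effect of STAT3 loss and an effect of such linked DNA cannot be told apart from these groups.

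The 9 genes lie in 5 places of the mouse genome, by gene order in the RefSeq table of assembly GRCm38.p6. Abhd17b and Cemip2 had 0 tested genes between them and 1 other annotated gene. Bckdhb and Cyb5r4 had 4 tested genes between them, and 33 annotated genes, tested or not. Atp10d had 2 tested genes between it and Txk and 4 between it and Bend4, so these 3 genes are near each other in the order of tested genes. The annotated genes between were more: 11 from Atp10d to Txk, 35 from Atp10d to Bend4 and 47 from Bend4 to Txk. Ctse and Mid1 each stood alone. Ctse shares its chromosome with Ptprc, which encodes CD45, a protein whose alleles are a usual sort marker. Between Ctse and Ptprc lay 45 tested genes and 173 annotated genes. Bckdhb and Cyb5r4 share theirs with Thy1, another usual sort marker, with 211 and 216 tested genes between, and 854 and 888 annotated genes. No member shares a chromosome with Stat3.

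Promoter sequences, from 250 bases before to 50 after a transcription start, were taken from RefSeq (GRCm38.p6). They matched 6 of the 9 genes (Abhd17b, Bckdhb, Cyb5r4, Bend4, Txk and Mid1), with 10 promoter entries. The entries were searched on both strands for TTCNNNGAA, the palindromic core that STAT proteins bind, and for a form with 4 bases instead of 3 between TTC and GAA. TTCNNNGAA was in 0 of the 10 entries, against 8.30% of 32851 mouse promoters of the same length. The form with 4 bases was in 2 entries, those printed for Cyb5r4 and Txk, against 6.95% of all. Neither count can be set apart from these shares with 10 entries of 6 genes, and nothing is read from them. Below are those of Abhd17b and Bckdhb, a strongly lower gene and a higher gene, and the pair with a match. Bckdhb and Txk each have a further entry that is not printed and holds no match of either form. Capitals mark the form with 4 bases, and the lines of Abhd17b and Bckdhb have none.
Abhd17b promoter, chr19:21653059-21653358, plus strand: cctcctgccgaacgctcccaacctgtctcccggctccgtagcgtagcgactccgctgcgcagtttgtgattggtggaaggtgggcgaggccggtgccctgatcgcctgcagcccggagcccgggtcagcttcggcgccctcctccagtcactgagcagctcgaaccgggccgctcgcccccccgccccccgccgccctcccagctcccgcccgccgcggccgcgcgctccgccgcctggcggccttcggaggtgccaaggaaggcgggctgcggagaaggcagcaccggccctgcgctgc
Bckdhb promoter, chr9:83924887-83925186, plus strand: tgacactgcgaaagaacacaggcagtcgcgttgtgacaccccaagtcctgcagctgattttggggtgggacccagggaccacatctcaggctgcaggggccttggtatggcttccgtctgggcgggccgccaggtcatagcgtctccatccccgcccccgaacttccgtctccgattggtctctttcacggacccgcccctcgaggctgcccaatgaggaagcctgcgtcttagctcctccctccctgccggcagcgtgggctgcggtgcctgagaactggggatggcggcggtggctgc
Cyb5r4 promoter, chr9:87021779-87022078, plus strand: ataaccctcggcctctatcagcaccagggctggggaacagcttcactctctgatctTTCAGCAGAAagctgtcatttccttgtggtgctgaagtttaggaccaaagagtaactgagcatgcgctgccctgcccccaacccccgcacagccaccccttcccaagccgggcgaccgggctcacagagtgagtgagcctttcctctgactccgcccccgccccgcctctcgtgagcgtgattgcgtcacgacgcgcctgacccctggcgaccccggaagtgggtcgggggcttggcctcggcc
Txk promoter, chr5:72752728-72753027, minus strand: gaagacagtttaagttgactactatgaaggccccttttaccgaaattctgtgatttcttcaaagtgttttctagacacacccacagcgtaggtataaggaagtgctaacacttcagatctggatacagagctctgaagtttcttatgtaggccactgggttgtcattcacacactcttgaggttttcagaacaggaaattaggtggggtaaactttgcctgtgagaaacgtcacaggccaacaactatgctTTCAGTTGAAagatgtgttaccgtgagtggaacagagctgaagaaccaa
The match in the Cyb5r4 promoter is TTCAGCAGAA, starting at base -194 from the transcription start. That of Txk is TTCAGTTGAA, starting at base 2 of the transcript. A match is a run of letters and says nothing on binding.

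Stat3 was low on every STAT3-/- array. Its log2 signal lay between 9.77 and 10.13 on Tc1 WT arrays and between 6.99 and 7.67 on Tc1 STAT3-/- arrays. In Tc17 it lay between 10.38 and 10.72 on WT arrays and between 7.59 and 7.93 on STAT3-/- arrays. Which exons its probe set covers was not analysed here. Array medians ran from 3.95 to 4.10. The SD over tested genes of the difference between a group's 2 biological arrays was 0.144 to 0.192, and between biological array 2 and the technical array 0.209 to 0.352, highest in Tc17 WT. T cell identity genes were high in every group, with a mean log2 signal of 10.23 to 10.50 over 7 genes.

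Signals below are log2 values as deposited, and they are compared within a gene, not between genes. Array signals can be compressed near background, so differences of dim genes may be understated. Of the 9 genes, 7 reached the filter of 5 in all 4 groups. Abhd17b reached it only in the WT groups and Cemip2 only in the STAT3-/- groups, so that these 2 genes were bound to differ once they passed.

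Ctse, which encodes the aspartic protease cathepsin E of endosomal compartments, was lower in STAT3-/- cells of both cultures. In Tc1 WT its log2 signal was 10 and 10.02 on the biological arrays and 9.93 on the technical array. In Tc1 STAT3-/- it was 6.64, 6.56 and 6.59. Every array of a genotype lay close to the others here, and the genotypes stood far apart. In Tc17 WT the signals were 9.58, 9.53 and, on the technical array, 9.12. In Tc17 STAT3-/- they were 6.20, 6.20 and 6.30. Only the technical array of Tc17 WT left its group, and it remained well above all STAT3-/- arrays. The log2 difference was -3.38 ± 0.10 (SE, n = 2 samples per group) in Tc1, 10.4-fold lower, and -3.23 ± 0.10 in Tc17, 9.35-fold lower.

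Abhd17b encodes a serine hydrolase that removes palmitate from membrane proteins such as Ras. The Tc1 log2 signals were 7.35, 7.40 and 7.17 on WT arrays and 3.96, 4.34 and 4.15 on STAT3-/- arrays. The Tc17 signals were 7.55, 7.09 and 7.49 on WT arrays and 4.77, 4.44 and 4.31 on STAT3-/- arrays. All STAT3-/- arrays were near the array medians, at or close to background. The log2 difference was -3.21 ± 0.16 in Tc1 and -2.85 ± 0.16 in Tc17, a measured 9.28-fold and 7.20-fold.

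Cemip2, adjacent to Abhd17b in the order of tested genes, encodes a cell-surface protein that degrades hyaluronan, and it differed the opposite way. Its log2 signal in Tc1 was 4.46, 4.79 and 4.62 on WT arrays and 5.26, 5.22 and 5.35 on STAT3-/- arrays. For Tc17 the signals were 4.86, 4.89 and 5.10 on WT arrays and 5.49, 5.48 and 5.58 on STAT3-/- arrays. The gene was dim throughout, yet the genotypes did not overlap within a culture. The difference was 0.69 ± 0.11 in Tc1 and 0.58 ± 0.11 in Tc17. Abhd17b and Cemip2, though adjacent, thus differed with opposite signs.

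**Figure D1:**
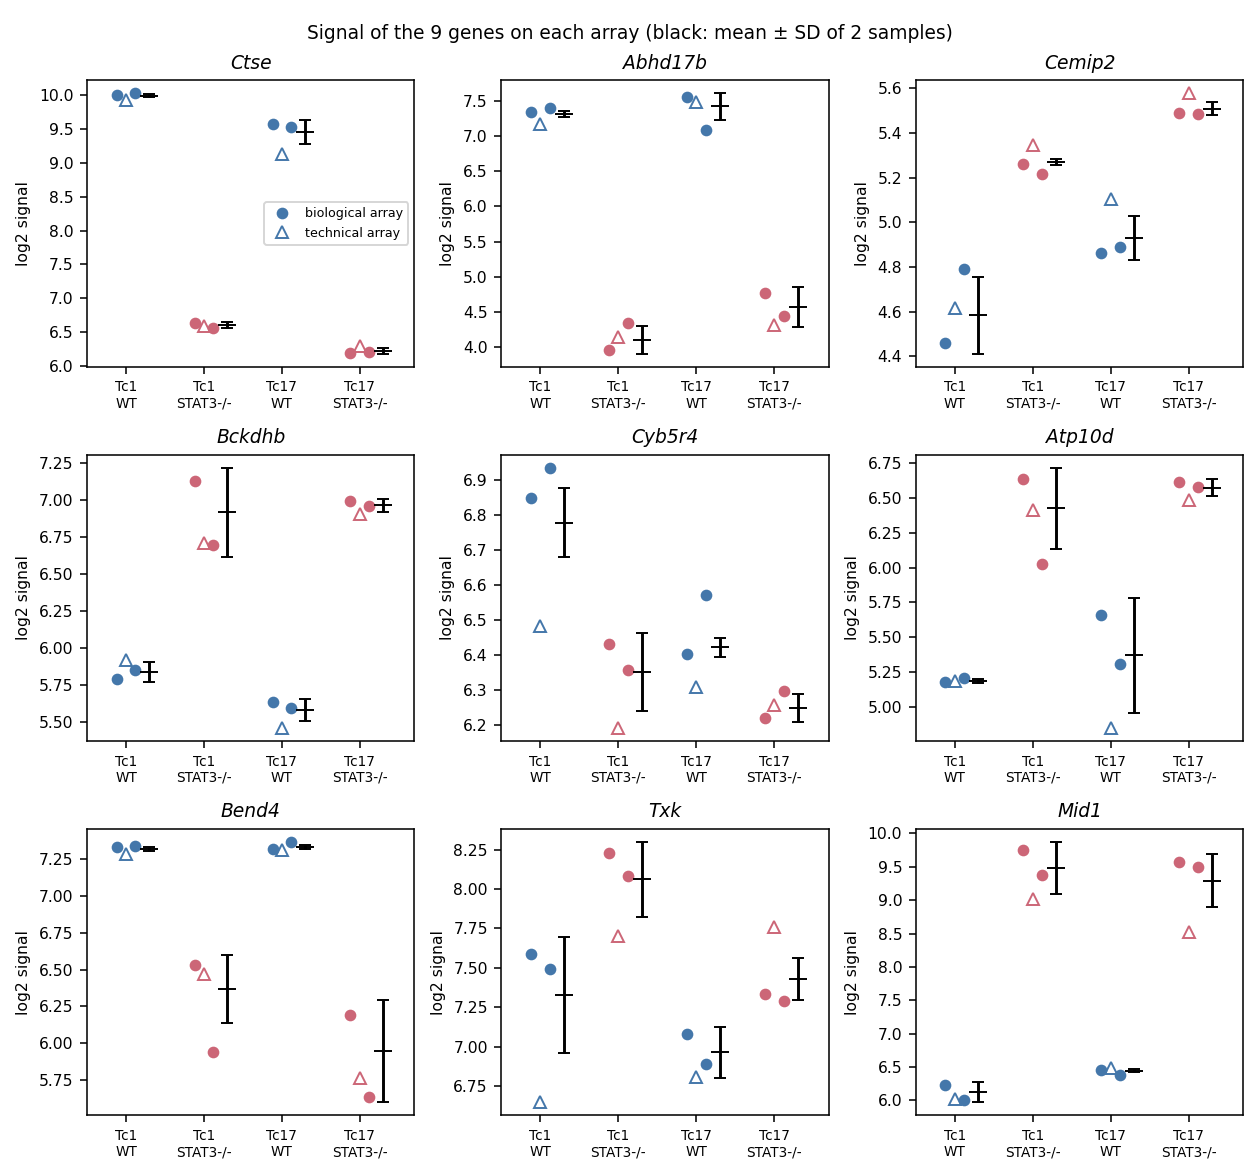
Log2 signal (y axis) of each of the 9 genes on the 12 arrays, by group (x axis). Filled circles are biological arrays, open triangles technical arrays, and black bars the mean ± SD of 2 samples. Within each culture the WT and STAT3-/- arrays do not overlap for any of the 9 genes, with the narrowest gap in Cyb5r4.

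Mid1 encodes a microtubule-bound ubiquitin ligase of the TRIM family that acts on protein phosphatase 2A, and in laboratory mice it straddles the pseudoautosomal boundary of the X chromosome. It had the largest positive difference of the 9 genes. In Tc1 its log2 signal was 6.22, 6.01 and 6.02 on WT arrays and 9.76, 9.38 and 9.02 on STAT3-/- arrays. In Tc17 it was 6.46, 6.37 and 6.48 on WT arrays and 9.57, 9.50 and 8.53 on STAT3-/- arrays. The technical arrays were the lowest of both STAT3-/- groups. The difference was 3.36 ± 0.21 in Tc1, 10.3-fold higher, and 2.85 ± 0.21 in Tc17, 7.20-fold higher.

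Mid1 has 4 probe sets on the platform, 2 with Mid1 as the sole symbol and 2 shared with G530011O06Rik. The values above are from the brightest. The other Mid1 probe set ran from 2.87 to 3.53 over all arrays, with differences of 0.36 in Tc1 and 0.14 in Tc17. The shared ones differed by 0.58 and 0.38, and by 0.21 and -0.09, in Tc1 and Tc17, at signals of at most 3.87. Of the Mid1 probe sets a single one thus showed the large difference, and the rest were below the filter of 5. With the mean of the 2 probe sets of Mid1 alone the difference was 1.86 in Tc1 and 1.49 in Tc17.

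Bckdhb encodes the E1 beta subunit of the enzyme complex that commits leucine, isoleucine and valine to breakdown. The Tc1 log2 signals were 5.79, 5.85 and 5.92 on WT arrays and 7.13, 6.69 and 6.71 on STAT3-/- arrays. The Tc17 signals were 5.63, 5.60 and 5.46 on WT arrays and 6.99, 6.96 and 6.91 on STAT3-/- arrays. It was higher on all STAT3-/- arrays, by 1.08 ± 0.13 in Tc1 and 1.38 ± 0.13 in Tc17.

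Cyb5r4, a reductase of the endoplasmic reticulum with a cytochrome b5 domain, had the smallest differences of the 9. Its log2 signal in Tc1 was 6.85, 6.94 and 6.48 on WT arrays and 6.43, 6.36 and 6.19 on STAT3-/- arrays. For Tc17 the signals were 6.40, 6.57 and 6.31 on WT arrays and 6.22, 6.30 and 6.26 on STAT3-/- arrays. The lowest WT array and the highest STAT3-/- array nearly met in both cultures, and the technical array was the lowest WT array each time. The difference was -0.43 ± 0.10 in Tc1 and -0.17 ± 0.10 in Tc17. In Tc17 the median difference over all tested genes was 0.11, and with arrays centred on the median of tested genes Cyb5r4 was at -0.29.

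Atp10d, Txk and Bend4, near each other in the order of tested genes, did not share a direction. Atp10d, a P4-type ATPase of the lipid flippase family, was higher in STAT3-/- cells. In Tc1 its log2 signal was 5.18, 5.21 and 5.19 on WT arrays and 6.63, 6.03 and 6.41 on STAT3-/- arrays. In Tc17 it was 5.66, 5.31 and 4.85 on WT arrays and 6.62, 6.58 and 6.48 on STAT3-/- arrays. Tc17 WT spread most, with the technical array lowest. The difference was 1.23 ± 0.19 in Tc1 and 1.20 ± 0.19 in Tc17, close to equal.

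Txk encodes a Tec-family kinase that acts below the T cell receptor. The Tc1 log2 signals were 7.59, 7.49 and 6.65 on WT arrays and 8.23, 8.08 and 7.70 on STAT3-/- arrays. The Tc17 signals were 7.08, 6.89 and 6.80 on WT arrays and 7.33, 7.29 and 7.76 on STAT3-/- arrays. The technical array was the lowest in Tc1 of either genotype and the highest in Tc17 STAT3-/-. The difference was 0.73 ± 0.18 in Tc1 and 0.47 ± 0.18 in Tc17. Without Tc1 WT replicate 2, which holds the low technical array, it was 0.47 in Tc1.

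Bend4, which encodes a protein with a BEN domain, a fold of DNA-binding proteins, was lower in STAT3-/- cells. Its log2 signal in Tc1 was 7.33, 7.34 and 7.28 on WT arrays and 6.53, 5.94 and 6.47 on STAT3-/- arrays. For Tc17 the signals were 7.32, 7.37 and 7.32 on WT arrays and 6.20, 5.64 and 5.76 on STAT3-/- arrays. The WT arrays of both cultures were nearly level while STAT3-/- arrays spread more. The difference was -0.95 ± 0.16 in Tc1 and -1.38 ± 0.16 in Tc17. A second Bend4 probe set, dim on all arrays at 3.67 to 4.09, differed by -0.06 and -0.13, and with the mean of both probe sets the differences were -0.50 in Tc1 and -0.76 in Tc17.

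Over the 9 genes, 4 were lower and 5 higher in STAT3-/- cells of both cultures. In all 9 the 3 arrays of a genotype did not overlap those of the other in either culture, as did 3.09% of all tested genes with the same direction in both. A limma fit over all tested genes, with Benjamini-Hochberg adjusted p under 0.05, called 4 of the 9 in Tc1 (Ctse, Abhd17b, Bckdhb and Mid1), where it called 0.0608% of tested genes. In Tc17 it called 7 of the 9, all but Cyb5r4 and Txk, where it called 25.1%. These counts rest on the differences that chose the genes, so nothing is read from them. Set side by side, the difference in Tc17 less that in Tc1 ran from -0.51 ± 0.30 (SE) for Mid1 to 0.37 ± 0.22 for Abhd17b. The comparisons of genotypes in Tc1 and in Tc17 use separate samples.

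**Figure D2:**
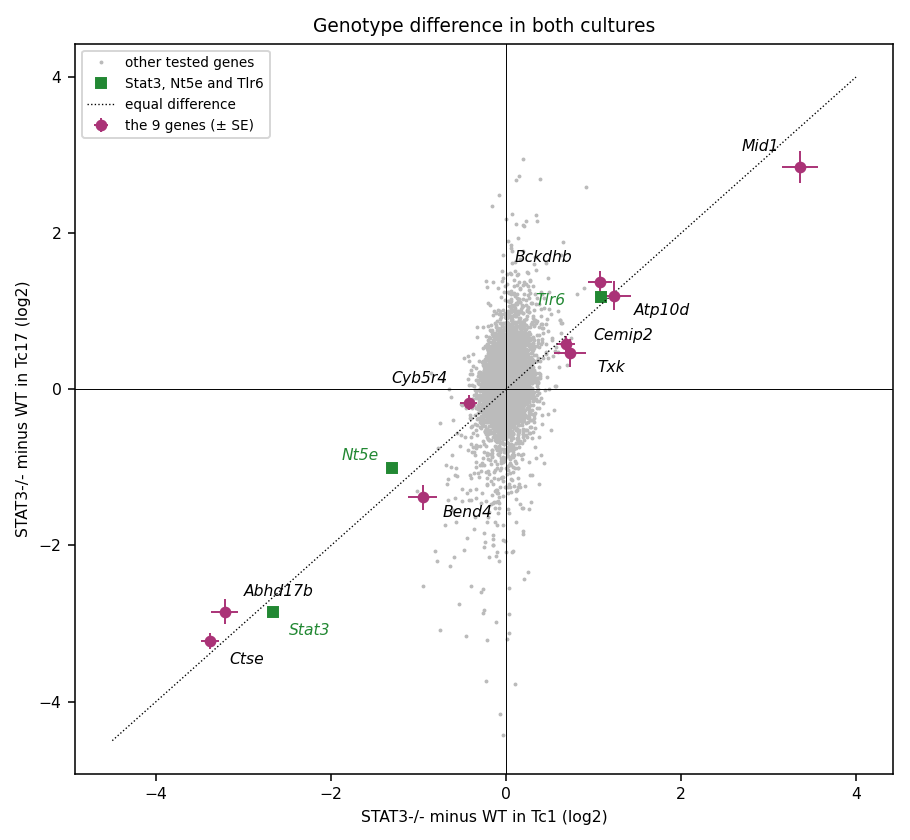
STAT3-/- minus WT difference (log2) in Tc1 (x axis) and in Tc17 (y axis) for all tested genes (grey) and the 9 genes (purple, ± SE), with Stat3, Nt5e and Tlr6 in green. Most grey points spread along the Tc17 axis, while Ctse (-3.38 and -3.23), Abhd17b, Stat3 and Mid1 (3.36 and 2.85) lie near the dotted line of equal difference.

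Among all tested genes ranked by the smaller of their 2 genotype differences, where these had 1 sign, Ctse took rank 1 and Stat3 rank 4. Mid1 and Abhd17b held the ranks between, in no settled order, since both had a smaller difference of 2.85 in size and Abhd17b was near background in STAT3-/- cells. Atp10d was at rank 5, Bckdhb at 7 and Bend4 at 10. Cemip2, Txk and Cyb5r4 followed at ranks 41, 63 and 687. The first 20 ranks held 6 of the 9 genes and 14 others. Tlr6, a Toll-like receptor (1.09 in Tc1 and 1.18 in Tc17), and Tmem104 (-0.77 and -0.75) had differences close to equal in size in both cultures. Nt5e, the ectoenzyme CD73 (-1.30 and -1.01), was somewhat larger in Tc1. Snora62 (-1.01 and -1.30), Ubxn11 (0.89 and 1.29), Gm6637 (0.81 and 1.22) and Apol7e (-0.69 and -0.96) were somewhat larger in Tc17. WT signals were below the array medians for Ubxn11 in both cultures (3.71 and 3.74) and for Gm6637 in Tc17 (3.33). Cpm (-0.94 and -2.51), Ccl5 (0.91 and 2.59), Snora75 (-0.81 and -2.07), Mir142 (-0.79 and -2.20) and Snora73b (-0.70 and -1.74) were more than 1 log2 unit larger in Tc17. Anxa3 was at -0.75 and -3.08, but its Tc1 means of 3.93 and 3.17 were below the array medians, so its Tc1 value and its rank rest on signals near background.

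The comparison of the cultures, Tc17 minus Tc1 averaged over the genotypes, asks whether the 9 genes also follow the culture condition. It is orthogonal to both genotype differences that chose the genes, but it uses the same arrays. Its p-values rest on the same estimate of spread, so they are not wholly free of that choice. Ctse was lower in Tc17 cells, by a log2 value of -0.46 ± 0.07 (SE; limma adjusted p = 0.00358), 1.38-fold, with -0.54 in WT and -0.38 in STAT3-/- cells. Txk was lower by -0.50 ± 0.13 (limma adjusted p = 0.0309), with -0.37 in WT and -0.63 in STAT3-/- cells. Cyb5r4 was lower by -0.23 ± 0.07 (limma adjusted p = 0.04996), and Cemip2 higher by 0.29 ± 0.07 (limma adjusted p = 0.0291), each with the same sign in both genotypes. Cemip2 entered the test only through the STAT3-/- groups, its WT means of 4.58 and 4.93 being under the filter, and it was not called without that filter. The other 5 genes did not pass: Abhd17b was at 0.29 ± 0.11 (limma adjusted p = 0.110), Bend4 at -0.20 ± 0.11 (0.255), Atp10d at 0.17 ± 0.13 (0.429), Bckdhb at -0.10 ± 0.10 (0.492) and Mid1 at 0.07 ± 0.15 (0.786).

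The 4 of 9 genes called for culture, Cemip2 with that limit among them, stand beside 16.5% of all tested genes, 534 higher and 1098 lower in Tc17. With arrays centred on the median of tested genes that split was 793 higher and 830 lower, and after cyclic loess 47.6% were higher. The median size of the culture effect was 0.230 over the 9 genes and 0.121 over all tested genes. The signs of the 4 called effects held under every scaling tried.

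The calls differed in firmness. Ctse was called under all 20 alternatives, at adjusted p from 0.000784 to 0.0238. Txk was not called without Tc1 WT replicate 1 (limma adjusted p = 0.0867), Tc1 STAT3-/- replicate 1 (0.105), Tc17 WT replicate 2 (0.0879) or Tc17 STAT3-/- replicate 1 (0.114) or 2 (0.0651). Cemip2 was not called without Tc1 WT replicate 1 (limma adjusted p = 0.113), Tc1 STAT3-/- replicate 1 (0.0828) or 2 (0.0604), Tc17 WT replicate 2 (0.0611) or Tc17 STAT3-/- replicate 1 (0.0931) or 2 (0.111). Without the dim filter, neither Txk (limma adjusted p = 0.0569) nor Cemip2 (0.0753) was called. Cemip2 was also not called with the technical arrays left out (limma adjusted p = 0.0512), nor Txk with each technical array as a sample of its own (limma adjusted p = 0.0837). Cyb5r4 lost its call under 16 of 20 alternatives, with limma adjusted p up to 0.181, and without every single sample but Tc1 STAT3-/- replicate 2.

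**Figure D3:**
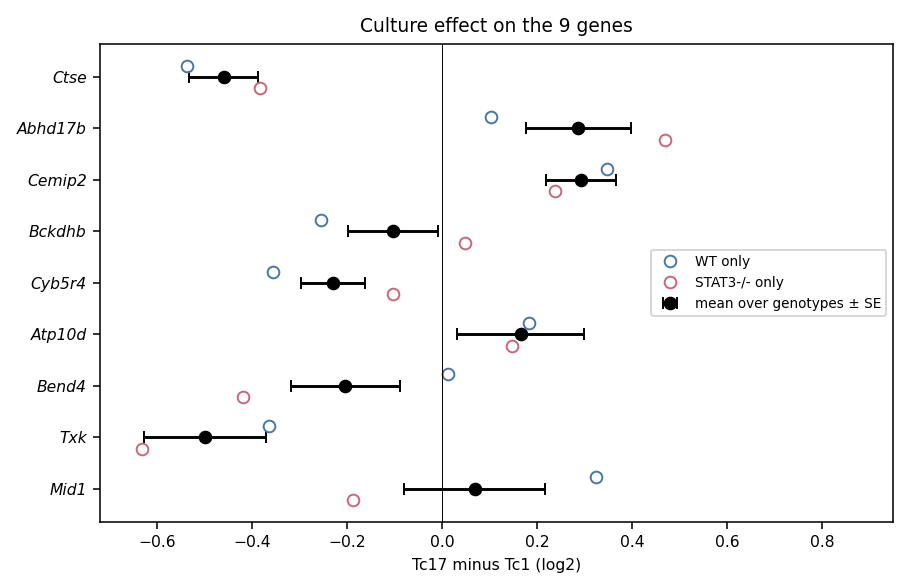
Tc17 minus Tc1 (log2, x axis) for the 9 genes, as the mean over genotypes ± SE (black) and within WT (blue) and STAT3-/- cells (red). Ctse, Txk and Cyb5r4 lie below 0 and Cemip2 above 0 in both genotypes, while Bckdhb, Bend4 and Mid1 have opposite signs in the genotypes.

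The tested genes around the members were then described. The windows of 10 tested genes on each side of the 9 genes hold 102 other tested genes. Of these, 3 had a genotype difference of at least 0.5 with the same sign in both cultures, 2.94% of them against 0.548% of all tested genes. In 7 of the 102 the genotypes' arrays overlapped in neither culture, with the same direction, 6.86% against 3.09%. In Tc17, 25 of the 102 were called, 19 higher and 6 lower (24.5%, against 25.1% of all). In Tc1, 1 was called. The median size of the difference was 0.090 in Tc1 and 0.184 in Tc17 in the windows, against 0.074 and 0.203 over all tested genes. The typical neighbour was thus slightly further from 0 than the typical tested gene in Tc1 and slightly nearer to 0 in Tc17.

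The 3 neighbours with such a difference lay around Bckdhb and Cyb5r4 or around Atp10d and Txk. Nt5e, whose product makes adenosine outside the cell, lay 2 places from Cyb5r4 in the order of tested genes. It had a mean log2 signal of 6.63 in Tc1 WT and 5.33 in Tc1 STAT3-/-, and 7.64 and 6.63 in Tc17, differences of -1.30 ± 0.15 and -1.01 ± 0.15. It was the neighbour called in Tc1 (limma adjusted p = 0.0220). That call was lost without 6 of the 8 samples in turn, all but Tc1 WT replicate 2 and Tc1 STAT3-/- replicate 1, at limma adjusted p up to 0.245 without Tc1 WT replicate 1. Slc17a5, a sialic acid transporter of lysosomes, lay 10 places from Bckdhb and differed by 0.63 ± 0.13 in Tc1 and 0.72 ± 0.13 in Tc17. Nipal1, of a family of magnesium transporters, lay directly beside Txk in the order of tested genes and differed by -0.56 ± 0.14 in both cultures. Its mean log2 signal was 5.44 in Tc1 WT and 5.39 in Tc17 WT, but 4.87 and 4.83 in the STAT3-/- groups. Nipal1 thus passed the filter of 5 only through the WT groups, where it was high, and the count of 3 neighbours carries that limit. Nipal1 and Txk, directly beside each other, thus had opposite signs. Nt5e had the sign of Cyb5r4 and the opposite sign to Bckdhb, while Slc17a5 had the sign of Bckdhb.

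The 20 neighbours of Ctse had 0 such differences. Among them Il24, an IL-10 family cytokine gene 7 places away, was at -0.07 in Tc1 and -4.17 in Tc17. Its Tc1 means of 4.27 in WT and 4.21 in STAT3-/- were near background. A loss of Il24 in Tc1 could therefore not be seen, and its pattern cannot be set against that of Ctse. The 12 tested neighbours of Mid1, of which 2 lay on the far side, had 0, and so had the 19 of Abhd17b and of Cemip2 other than each other. The windows around Stat3, Ptprc, Thy1 and Cd4, the altered gene, the usual sort markers and the gene whose promoter drives Cre, held 20 genes each and 0 such differences. Only 0.548% of all tested genes had such a difference, so most windows of this size would hold 0 wherever they lie. Nothing is read from a count of 0 in any of these windows. The labels do not name the sort marker, and a Cre driven by the Cd4 promoter need not lie at Cd4. The windows around Ptprc, Thy1 and Cd4 may therefore hold no linked DNA, and their counts are a description. Ptprc itself differed by 0.13 ± 0.09 in Tc1 and 0.43 ± 0.09 in Tc17, Thy1 by -0.10 ± 0.08 and 0.08 ± 0.08, and Cd4 by 0.07 ± 0.12 and -0.24 ± 0.12.

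**Figure D4:**
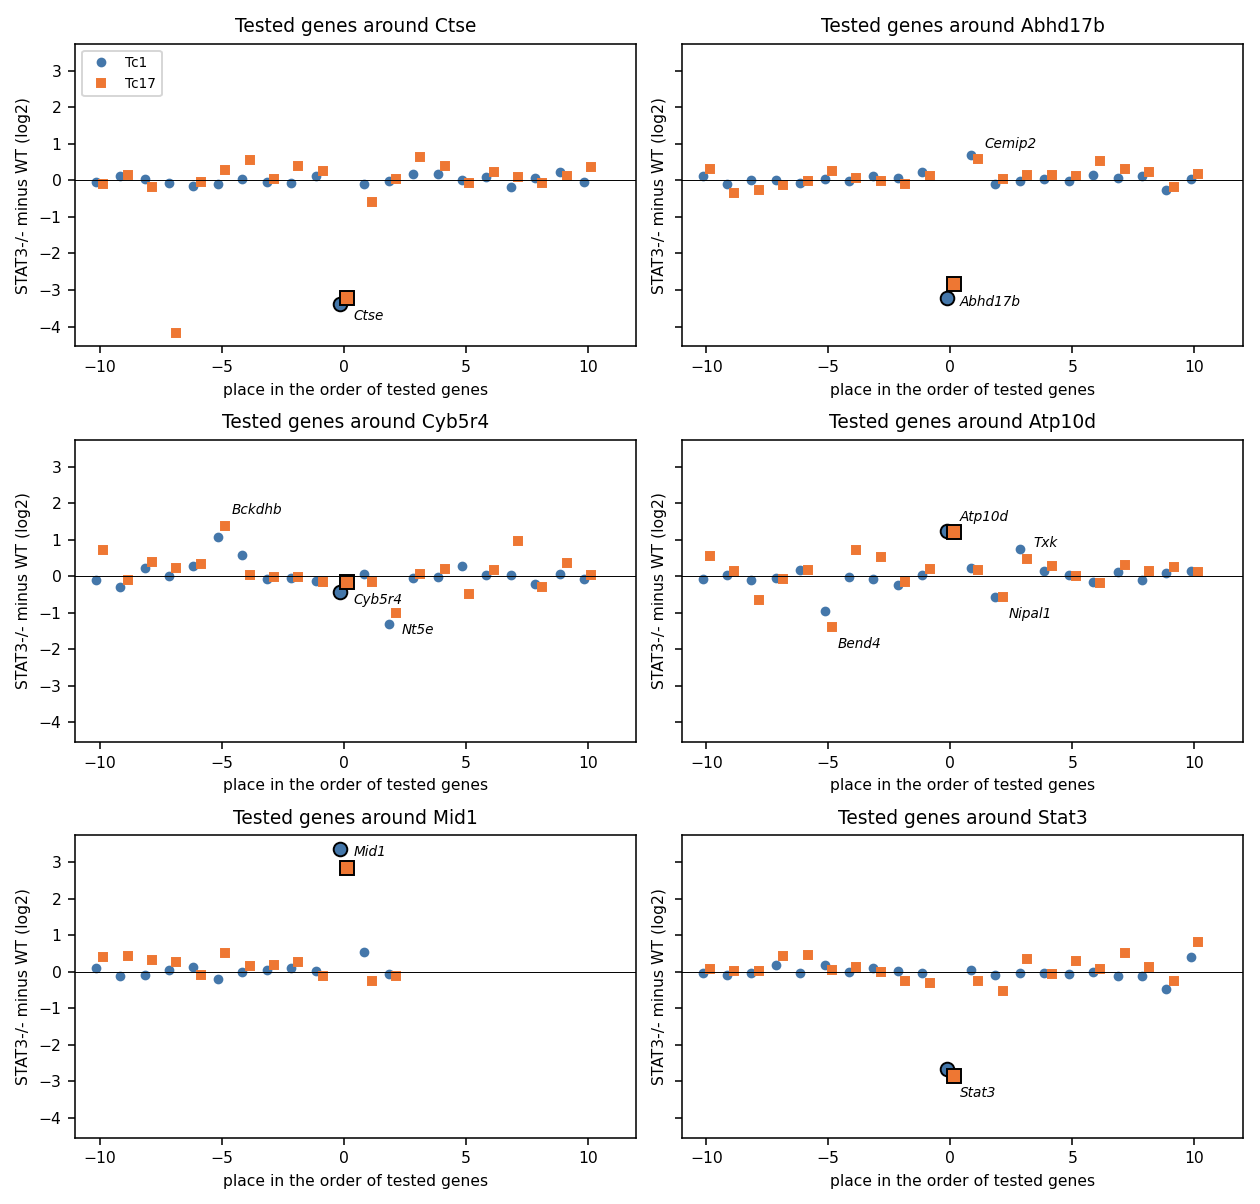
STAT3-/- minus WT difference (log2, y axis) of the tested genes around Ctse, Abhd17b, Cyb5r4, Atp10d, Mid1 and Stat3, by place in the order of tested genes (x axis), in Tc1 (blue circles) and Tc17 (orange squares). The central gene is outlined in black, and members and neighbours with a shared difference of at least 0.5 are named. Ctse, Mid1 and Stat3 stand alone, while Nt5e and Nipal1 lie beside members; the low Tc17 point near Ctse is Il24.

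The members' families were followed in lists chosen with earlier results of these data known. No tested relative in any of the 9 lists was called in Tc1, and none had a shared difference of at least 0.5. Over all tested genes these shares were only 0.0608% and 0.548%. Lists of these sizes would mostly hold none, so nothing is read from their absence. Of 11 tested cathepsins and related proteases other than Ctse, in Tc17 1 was higher (Napsa, 0.91) and 1 lower (Lgmn, -0.36), with a median of 0.05 against 0.11 for all tested genes. Of 20 other genes of branched-chain amino acid breakdown, 4 were higher in Tc17 STAT3-/- cells and 0 lower: Mccc2 and Hibadh (each 0.54), Hibch (0.47) and Acad8 (0.41), with a list median of 0.23. Over all tested genes, 1799 of 9862 were higher in Tc17 STAT3-/- cells and 674 lower, 25.1% in all, so that this count lay near the background. In Tc1 these 4 were at 0.10, 0.12, 0.04 and 0.03, where Bckdhb was at 1.08.

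The remaining lists are likewise read beside the 25.1% of all tested genes called in Tc17, and at their sizes no count is taken to stand apart from it. Of 8 other P4-ATPases and subunits, Atp8b4 (1.30) and Atp8a1 (0.72) were higher and Atp11a (-0.28) lower in Tc17 STAT3-/- cells. Atp8a1 lies next to Bend4 in the order of tested genes and was at -0.04 in Tc1. Of 8 other Tec kinases and T cell receptor partners, Fyn (0.49) and Plcg1 (0.40) were higher in Tc17. Tec, a relative of Txk, was at 0.15 in Tc1 and 0.27 in Tc17, not called in either. Of 3 other tested genes of hyaluronan handling Hmmr (0.34) was higher, and of 5 cytochrome b5 genes Cyb5b (0.29). None of the 7 other depalmitoylating enzymes, 4 BEN domain proteins and 6 MID1 relatives and partners was called for genotype in Tc17. By culture, Ctsw (0.43), Ctsz (0.23), Cd44 (0.71) and Tec (0.49) were higher and Hmmr (-0.32), Auh (-0.40), Atp8b4 (-0.78), Atp8a1 (-0.37), Atp10a (-0.33) and Mid1ip1 (-0.40) lower in Tc17.

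Across the 8 samples the genes most like each member by Pearson r were in part other members. The points share arrays and genotype, so r is a description. Abhd17b was closest to Stat3 (r = 0.979) and then Ctse (0.968). Ctse was closest to Abhd17b (0.968) and Bend4 (0.949). Bend4 was closest to Ctse and then Apol7e (0.947), and Mid1 to Bckdhb (0.966) and Tab2 (0.964). Bckdhb was closest to Tlcd2 (0.988) and Pgm2 (0.977), and Atp10d to Tlcd2 (0.968) and Mapk9 (0.965). Cemip2 was closest to Zfp62 (0.989) and Ly6k (0.957), Cyb5r4 to Rell1 (0.932) and Armcx2 (0.906), and Txk to Gtf2e2 (0.969) and Psma6 (0.968). None of the 18 matches lay on the chromosome of its member. Among the members, Txk and Cyb5r4 followed each other least (r = -0.14).

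Lists of markers of other cells were dim on average. The mean log2 signal of 9 myeloid and dendritic cell markers lay between 4.01 and 4.22 on all arrays, that of 4 NK and innate-like T cell markers between 3.58 and 4.05, that of 3 CD4 T cell markers between 4.52 and 5.05 and that of 2 erythroid markers between 4.32 and 4.83. The mean of 6 B cell markers lay between 4.88 and 4.94 in Tc17 WT and between 5.22 and 5.32 in Tc17 STAT3-/-, against 5.08 to 5.13 and 5.12 to 5.21 in Tc1. The other 4 markers were under the filter of 5 in every group. The 2 tested markers were not dim, with group means of 9.09 to 10.86 for Ighm and 6.71 to 7.56 for Cd79b. Ighm (1.77) and Cd79b (0.78) were higher in Tc17 STAT3-/- cells, and in Tc1 they were at 0.07 and 0.04. The myeloid marker Cd68 was lower in Tc17 STAT3-/- cells (-1.12), and of 7 identity genes Cd8a was higher (0.30) and Cd5 lower (-0.33) there. The part of such cells in the Tc17 differences of the 9 genes was not tested. In bulk RNA, fewer cells of a type and less RNA per cell cannot be told apart.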

How the data were processed

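RNA of 12 samples was measured on Affymetrix arrays. The authors deposited log2 expression values per probe set, and the submitters' processing notes name RMA and Partek; their roles and their versions stay unknown, being not given in the sources used here. Signals were used as deposited, and array intensities before that step were not used. Of 41345 probe sets, 23521 had 1 gene symbol, 1814 several and 16010 none in GEO's platform annotation. The first kind was used, 22180 genes in all, the probe set with the highest mean standing for a gene.

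Each technical array was averaged with biological replicate 2 of its group. Genes with at least 1 group mean of 5 or more were tested (9862; 12318 removed). All 8 samples were fitted together with limma 3.58.1 (lmFit and eBayes) in R 4.3.3, with 4 residual and 4.87 prior degrees of freedom, and p-values were adjusted by Benjamini-Hochberg over all tested genes. The number of arrays limits the precision. Genes were ordered by the RefSeq table of GRCm38.p6, which placed 9814 tested genes. On simulated data for the culture effect, with 200 of 9862 genes changed, 99% of changes of 1 and 100% of changes of 2 log2 units were recovered, with 19 false calls.

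The members and the gene lists were chosen with earlier results of these data known. The text names the 9 genes with all their probe sets, neighbours with a genotype difference of at least 0.5 with the same sign in both cultures, the 20 genes with the largest such differences, the 2 genes most like each member, called genes of each list, and Stat3, Ptprc, Thy1 and Cd4. Alternatives covered the technical arrays, the choice of probe set, the dim filter, scaling, trend, a replicate block and leaving out each sample. Python 3.11.15, pandas 2.3.3 and matplotlib 3.10.9 were used for gene order, sequences and plots.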

Additional observations from a re-analysis of the deposited data

How the results depend on the processing

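The signs of the genotype differences of all 9 genes held under all 20 alternatives: 324 of 358 values moved by less than 1 SD and 34 by more. Many of the 324 could not move. The dim filter, the trend setting, the replicate block and leaving out a sample of the other culture leave a genotype difference as it is. So does the mean of probe sets for a gene with 1 probe set. The count of 324 therefore overstates how far these differences were tried. Of 179 culture values, 144 kept sign and side of the threshold, 31 lost the call and 4 turned, all uncalled: Bckdhb ranged from -0.21 to 0.0034 and Mid1 from -0.071 to 0.21 when a sample was left out, and Mid1 was -0.016 with the mean of its probe sets. Members called for culture numbered 4, but 2 with the technical array as a sample of its own, 1 without the dim filter and 1 to 3 when a sample was left out. Genes called for culture numbered 1632, but 1084 without the dim filter and 739 (without Tc17 STAT3-/- replicate 2) to 2438 when a sample was left out. For genotype in Tc17 the count of 2473 ranged from 943 (without Tc17 STAT3-/- replicate 2) to 3191. In Tc1 the count of 6 became 24 with technical arrays left out, 16 with them in replicate 1, 13 with each as a sample of its own, and 14 when the Tc17 WT technical array alone was left out, an alternative chosen after seeing the data. Replicate numbers are shared by the groups, but only 2 exist. Same-numbered samples deviated together at r = 0.098 to 0.455, at most 0.172 without technical arrays. Both highest values were those of Tc1 WT with Tc1 STAT3-/-, genotypes that were cultured mixed. The same pair of genotypes in Tc17 was at 0.099, and at 0.029 without technical arrays. The numbers were not taken to pair samples, and whether they do is not settled by so few. With the replicate block the counts were 15 in Tc1, 3056 in Tc17 and 2063 for culture, and 4 members were called for culture. Neighbours with a shared difference numbered 2 to 4 over the windows and alternatives. A filter at 6 removed Cemip2. The causes of these changes were not tested.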

Other observations

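Of the 54 tested genes whose genotype difference was at least 0.5 with 1 sign in both cultures, 47 were not among the 9 genes. Beyond the windows of 10 tested genes, several of them lay on the chromosome that carries Atp10d, Txk and Bend4. Tlr6, a Toll-like receptor gene, lay 19 tested genes from Bend4 and differed by 1.09 in Tc1 and 1.18 in Tc17. It reached the filter of 5 only in the STAT3-/- groups, where it was high. Klf3, a zinc finger repressor of the Kruppel-like family, lay 21 tested genes from Bend4 and differed by 0.65 and 1.88. On the other side Cox18, a factor for assembly of cytochrome c oxidase, lay 37 tested genes from Txk (0.53 and 0.65), and Naaa, a lysosomal amidase, lay 44 from it (0.57 and 0.54). Anxa3 lay 53 from Txk (-0.75 and -3.08), with Tc1 signals below the array medians, and Snora15 lay 259 from it (-0.56 and -1.12). The chromosome of Stat3, which carries none of the 9 genes, held such genes as well. These were Snord104, Tmem104, Mir142, Ccl5, Tlcd2 and Snord118, at 80 to 330 tested genes from Stat3. Gm6637 (0.81 and 1.22) lay 20 tested genes from Cd4, on a chromosome that also carries none of the 9 genes. Klf3, Cox18, Naaa, Snora15, Snord104 and Snord118 were named after their values were seen. Whether more such genes lie on the chromosome of Atp10d, Txk and Bend4 than elsewhere was not tested.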
